A study of Mus musculus with 48 samples.

Results

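Kidneys of mice given 400 mg/kg vancomycin intravenously (iv) were set against kidneys of mice given iv saline, 6 mice against 6, which together made 12 of the 48 arrays of the study. The treated animals were mice 43 to 48 of the labels and the saline animals were mice 1 to 6. All were female BALB/c mice of unstated age that received 7 daily injections and were killed on day 8. The study also gave 50 and 200 mg/kg iv, and saline, 50, 200 and 400 mg/kg intraperitoneally, to groups of 6 mice each. A small piece of each kidney gave the RNA, and the region of the kidney it came from is not given in the sources used here. Each mouse gave 1 array, and the number of arrays limits the precision.

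Vancomycin is a glycopeptide antibiotic that blocks cell wall synthesis in bacteria. It leaves the body mainly through the kidney, where high exposure is known to injure the proximal tubule. The proximal tubule reclaims most filtered glucose, phosphate, amino acids and small proteins, and it burns fatty acids and other fuels in its many mitochondria to do so. After injury, surviving tubule cells are known to lose these functions for a time, to make injury proteins such as KIM-1 and clusterin, and to divide.

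All levels below are log2 intensities of single-colour arrays, so a difference of 1 is a 2-fold change. A level under 3.47, the median of the whole table, cannot be told from background, so where a group mean lies under it the fold change is approximate. Where only a fold change is printed below, the saline mean lay under 3.47 for Birc5, Ccna2, Inhbb, Adam8, Cybb and Gpx7. The treated mean lay under it for Dpys, Hmx2 and Nr1d1. Gene names rest on row position, because the values of the table used here do not follow the identifiers printed beside them. They cover 11000 of 45101 probe sets, in 3 stretches. Within these stretches the levels of probe sets of the same gene correlated at 0.494 over 2927 pairs with names by position, against 0.142 over 3132 pairs with names as listed. By position, the Y-linked genes Eif2s3y, Uty and Kdm5d lay under 3.47 in all 48 female kidneys, and the X-linked Xist lay at 8.98 to 11.78 in the brighter of its probe sets, genes picked for this check alone. Every named result holds as far as these names do. Markers of kidney tubule were present: Umod averaged 12.99 ± 0.19 in treated and 13.26 ± 0.07 in saline kidneys, and Lrp2 averaged 10.82 ± 0.69 in treated and 12.77 ± 0.33 in saline kidneys (SD, n = 6 each). Of the podocyte markers, Podxl lay under 3.47 in both groups (means 2.55 in treated and 2.66 in saline kidneys), while Nphs1 and Wt1 lay above it.

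Saline mouse 1 stood apart from the other saline arrays. The 90th percentile of its log2 values was 8.29, against 8.68 to 8.75 in the other saline arrays, and its median was 3.47, against 3.34 to 3.37. Treated mouse 44 had the highest median of the treated arrays, 3.52, against 3.39 to 3.43 in the others. Over the probe sets kept by the filter on low values, treated arrays correlated with each other at 0.953 to 0.989, saline arrays with each other at 0.965 to 0.994, and treated with saline arrays at 0.892 to 0.971. Without saline mouse 1 and treated mouse 44, 2675 genes were called, 1464 higher and 1211 lower. Some list counts below are given without them too.

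Of 5748 genes tested, 2859 (49.7%) differed between the groups at an adjusted p under 0.05 (limma, Benjamini-Hochberg over all genes tested). In the treated kidneys 1767 genes (30.7%) were higher and 1092 (19%) were lower. The change was over 2-fold for 894 genes (15.6%), with 574 rises (9.99%) and 320 falls (5.57%). Over 8-fold there were 71 rises and 18 falls. All 6 treated kidneys lay above all 6 saline kidneys for 869 genes (15.1%), and below them for 395 genes (6.87%). The median log2 fold change of all tested genes was 0.09. The counts of each gene group below are to be read against the 30.7% of all genes that rose and the 19% that fell. A gene at background in saline could pass the filter through its levels in vancomycin groups alone. Such a gene could be counted as a rise but hardly as a fall. Of the 1767 rises, 221 had a saline mean under 3.47, and the list counts below hold for tested genes only. Counts given without saline mouse 1 and treated mouse 44 are to be read against 1464 rises and 1211 falls among the 5748 genes. Some genes are in several lists, such as Cd14 (injury and cytokine) and Krt20 (injury and keratin). The list counts are therefore not independent of each other.

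**Figure D1:**
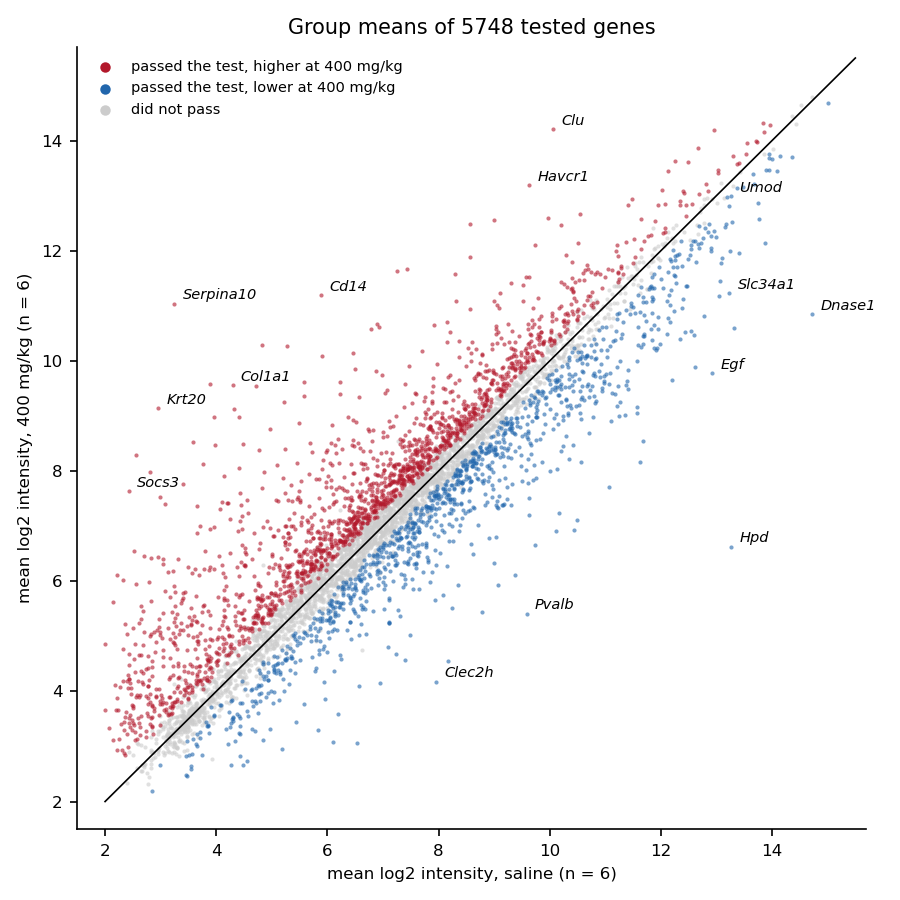
Each point is a gene, placed at its mean log2 intensity over 6 kidneys at 400 mg/kg (vertical axis) and over 6 saline kidneys (horizontal axis), and the line marks equal levels. Red points (1767 genes) passed the test as higher at 400 mg/kg, blue points (1092 genes) passed as lower, and grey points did not pass. Serpina10 lies farthest above the line and Hpd farthest below it.

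Genes known as markers of tubular injury had the highest median of all lists. Of 20 tested members 18 rose and none fell, with a median log2 fold change of 3.92. The list was chosen with earlier results of these kidneys known, so its direction is not independent evidence. Serpina10, a serpin that blocks clotting factors, had a lowest, median and highest level of 10.39, 11.10 and 11.42 in treated kidneys, against 2.57, 3.26 and 4.16 in saline kidneys. The change was 7.80 ± 0.61 (log2 fold change ± SE, adjusted p = 3.6e-14), and the saline level is not told from background. Havcr1, which encodes the phosphatidylserine receptor KIM-1, had 12.27, 13.21 and 13.78 in treated kidneys, against 8.71, 9.74 and 10.21 in saline kidneys. That was an 11.7-fold rise (adjusted p = 1.7e-09). Clu, the secreted chaperone clusterin, had 13.84, 14.24 and 14.43 in treated kidneys, against 9.05, 10.19 and 10.49 in saline kidneys. Its 17.7-fold rise (adjusted p = 8.1e-14) came with an SD of 0.19 among treated mice, against 0.52 among saline mice. In all 3 genes the groups were separate, and the lowest treated value was that of mouse 45.

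In the injury list, Krt20 and Lrg1 followed Serpina10 in size of change. Krt20, a keratin that the normal tubule hardly makes, averaged 9.15 ± 1.18 in treated and 2.96 ± 0.37 in saline kidneys (SD, n = 6 each), and Lrg1, a secreted acute-phase glycoprotein, averaged 9.59 ± 1.02 in treated and 3.90 ± 0.35 in saline kidneys. Cd44, the hyaluronan receptor, rose by 5.18 ± 0.33 (adjusted p = 1.5e-16) and Aoc1, a diamine oxidase, by 5.00 ± 0.52 (adjusted p = 6e-11) on the log2 scale. The saline mean of Cd44 was 2.8, not told from background. Ankrd1, an ankyrin repeat cofactor of transcription, rose by 4.36 ± 0.36. Ccn2, a matrix protein of fibrosis, did not pass (10.31 ± 0.56 in treated and 10.00 ± 0.62 in saline kidneys, SD, adjusted p = 0.37).

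**Figure D2:**
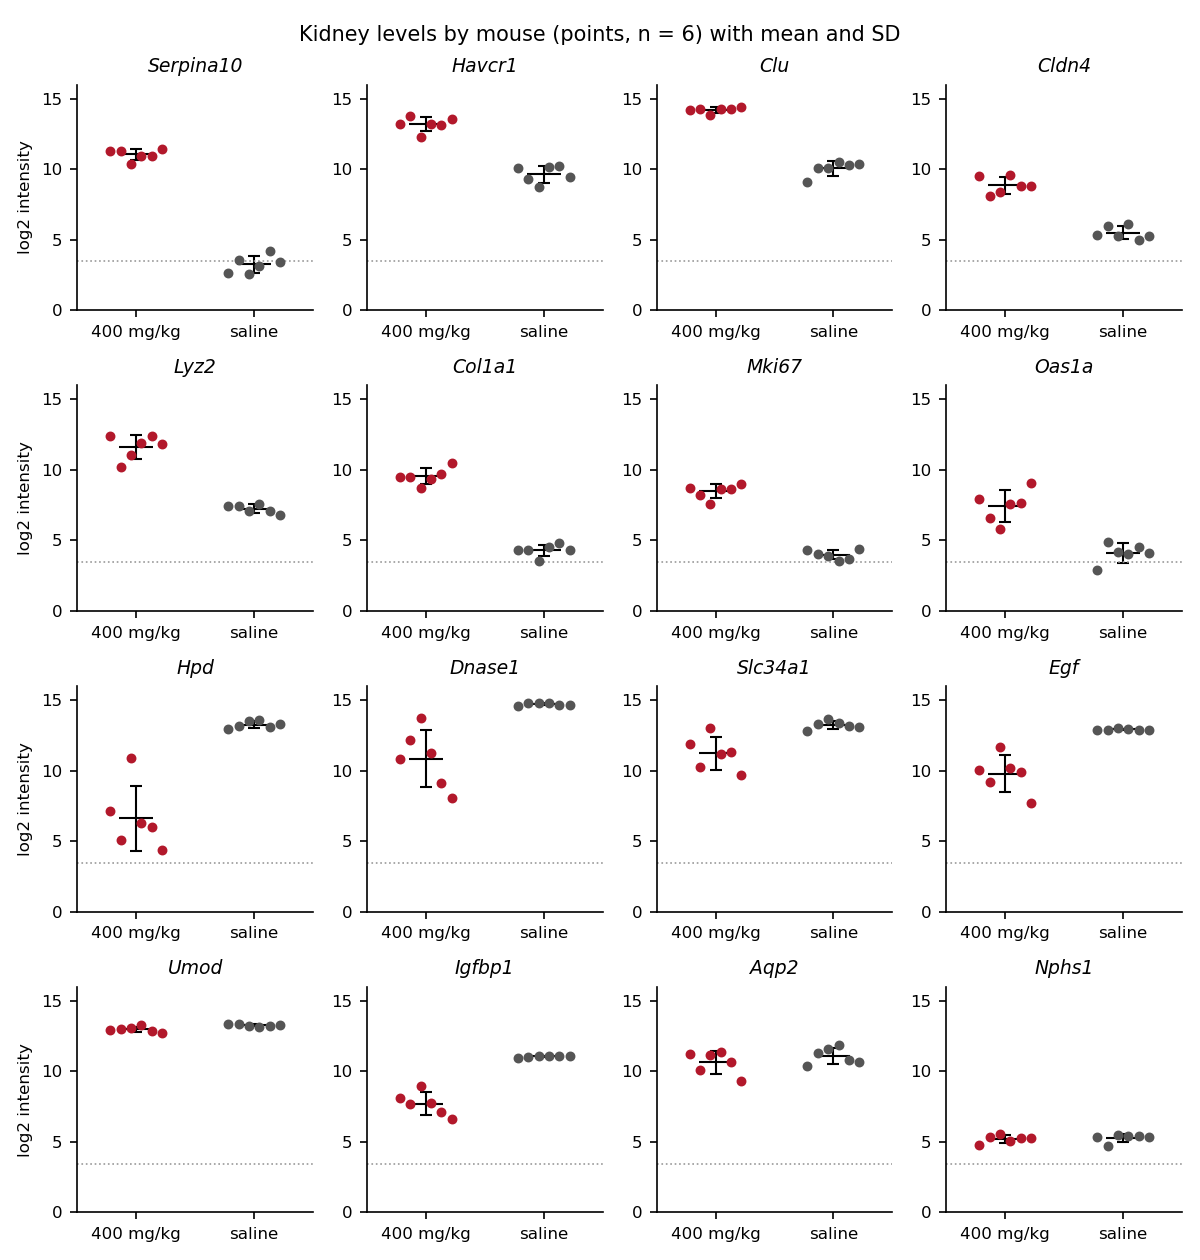
Log2 intensity of 16 genes in each of 6 kidneys at 400 mg/kg (red, left) and 6 saline kidneys (grey, right), with the mean and SD in black. The dotted line is the table's median of 3.47. The groups are separate for Serpina10, Havcr1, Clu, Cldn4, Lyz2, Col1a1, Mki67, Oas1a, Hpd, Dnase1, Egf and Igfbp1, and they overlap for Slc34a1, Umod, Aqp2 and Nphs1.

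Cytoskeleton genes rose with the injury genes, and the cells that made their RNA were not told apart. Of 12 tested keratins and intermediate filament genes 8 rose and none fell (median 0.71), and of 26 actin cytoskeleton genes 21 rose and none fell (median 0.98), with 18 rises without saline mouse 1 and treated mouse 44. Krt19, a keratin of simple and ductal epithelia, averaged 8.48 ± 0.95 in treated and 4.49 ± 0.62 in saline kidneys (SD), and Krt8, the keratin of simple epithelia at large, rose by 1.95 ± 0.19 on the log2 scale. Tmsb10, which binds actin monomers, had 11.26, 12.81 and 13.02 as its lowest, median and highest level in treated kidneys, against 8.62, 9.01 and 9.34 in saline kidneys (11.8-fold, adjusted p = 9.5e-14). Every treated kidney was above every saline kidney. The actin crosslinker Flna rose by 2.44 ± 0.25 and the smooth muscle protein Tagln by 2.48 ± 0.29.

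Calcium-binding and galectin genes rose with them. Of 12 tested annexin, S100 and galectin genes 10 rose and none fell (median 1.09). S100a6 averaged 12.49 ± 0.65 in treated and 8.57 ± 0.79 in saline kidneys, and Lgals3, galectin 3, averaged 12.60 ± 0.38 in treated and 9.98 ± 0.38 in saline kidneys (SD, n = 6 each). Cell junction genes were mixed: 12 of 32 rose and 2 fell, 11 and 4 without saline mouse 1 and treated mouse 44. Cldn4, a tight junction claudin of the distal nephron, had 8.12, 8.81 and 9.60 in treated kidneys, against 5.00, 5.30 and 6.14 in saline kidneys (10.4-fold, adjusted p = 1e-11), and did not overlap. Cldn3 rose by 1.93 ± 0.29, whereas Gjb2, the gap junction protein connexin 26, fell by 1.29 ± 0.13 on the log2 scale (SE).

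Matrix genes rose. Of 24 tested fibroblast and myofibroblast genes 19 rose and none fell (median 1.64), and of 31 integrin, laminin and basement membrane genes 20 rose and 3 fell (median 0.68). The 19 include Thy1, whose saline mean of 2.43 was not told from background. Col1a1, a chain of fibrillar collagen I, had 8.70, 9.51 and 10.50 as its lowest, median and highest level in treated kidneys, against 3.56, 4.30 and 4.78 in saline kidneys (38.4-fold, adjusted p = 9.5e-14). The partner chain Col1a2 rose by 4.19 ± 0.34 and fibronectin, Fn1, by 3.35 ± 0.35. The basement membrane collagens Col4a1 (2.09 ± 0.18) and Col4a2 (1.55 ± 0.21) rose by less on the log2 scale. Of 19 matrix proteases and inhibitors 14 rose and none fell, among them Mmp14, a membrane collagenase, by 2.10 ± 0.30 and the metalloprotease Adam8 by 2.37 ± 0.31.

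Genes of growth signals moved in both directions. Of 35 growth factors, binding proteins and receptors 9 rose and 13 fell (median -0.23). Egf, a mitogen made by the distal tubule, had 7.71, 9.99 and 11.67 in treated kidneys, against 12.86, 12.90 and 13.04 in saline kidneys (an 8.8-fold fall, adjusted p = 3.4e-10). Igfbp1, which binds insulin-like growth factors, had 6.63, 7.73 and 8.93 in treated kidneys, against 10.98, 11.08 and 11.11 in saline kidneys. Both genes were nearly level among saline mice and spread widely among treated mice. The receptor tyrosine kinase Axl rose by 2.14 ± 0.22, and Vegfa, the endothelial growth factor, fell by 1.22 ± 0.17 on the log2 scale (SE).

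Of 44 genes of the TGF-beta, BMP, Wnt, Notch and hedgehog pathways 14 rose and 8 fell, close to the shares of all genes, and 11 rose and 7 fell without saline mouse 1 and treated mouse 44. Tgfb1, the profibrotic ligand, averaged 7.46 ± 0.50 in treated and 5.12 ± 0.34 in saline kidneys (SD). Inhbb, an activin subunit, rose by 3.48 ± 0.34 and Tgif1, a repressor of TGF-beta signalling, by 2.62 ± 0.27 (log2 fold change ± SE). Among 31 transcription factors of the nephron 5 rose and 9 fell. Hnf4a, which maintains proximal tubule identity, fell by 1.03 ± 0.17 (adjusted p = 1.5e-06), and Elf3, an epithelial stress factor, rose by 1.74 ± 0.22.

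Cytokine signalling rose. Of 46 tested cytokine and NF-kB genes 31 rose and 5 fell (median 0.92). Il1f6, which encodes the epithelial alarm cytokine interleukin 36 alpha, averaged 8.30 ± 1.16 in treated and 2.56 ± 0.69 in saline kidneys. Socs3, the feedback inhibitor of STAT3 signalling, had 6.67, 7.82 and 8.18 as its lowest, median and highest level in treated kidneys, against 2.06, 2.54 and 2.80 in saline kidneys (adjusted p = 1.5e-16). Its treated and saline kidneys were far apart, from a saline level not told from background. Of 28 named chemokine ligands and receptors 14 passed the filter on low values, and of these 10 rose and 1 fell. Ccl9 (5.01 ± 0.38), Ccl6 (4.03 ± 0.40), Ccl20 (3.90 ± 0.32) and Cxcl10 (3.61 ± 0.37) were at the top. The saline mean of Ccl20 was 2.215, not told from background. A gene low in saline could pass the filter through its treated levels alone, so the counts hold for the 14 tested genes only. The TWEAK receptor Tnfrsf12a averaged 10.15 ± 0.36 in treated and 6.46 ± 0.25 in saline kidneys (SD).

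Genes of macrophages and monocytes had the second highest median among the lists with at least 10 tested members. Of 33 tested members 30 rose and 1 fell (median 2.64), and all treated kidneys lay above all saline kidneys for 23 members and below them for 1, against 15.1% and 6.87% of all genes. The linear intensities of all 35 named members summed to 5558 to 17324 in treated kidneys and 1904 to 2273 in saline kidneys. Lyz2, the lysozyme of phagocytes, had 10.18, 11.85 and 12.43 in treated kidneys, against 6.82, 7.27 and 7.61 in saline kidneys. Fcgr1, the high-affinity IgG receptor, had 6.10, 7.98 and 9.02 in treated kidneys, against 2.92, 3.44 and 3.91 in saline kidneys. In both genes the treated value was lowest in mouse 44. Ms4a6b rose by 4.94 ± 0.36, Ly86 by 4.58 ± 0.35 and the complement subunit C1qa by 3.77 ± 0.29 on the log2 scale (SE). Cd14, the lipopolysaccharide co-receptor, which injured tubule cells also make, rose by 5.32 ± 0.41. In whole tissue, more cells of a type and more RNA per cell cannot be told apart, and fewer cells and less RNA per cell cannot either.

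Other blood cells were covered more thinly. Of 7 named neutrophil genes 2 passed the filter on low values, and Elane and Ngp did not. The summed linear intensity of all 7 was 43 to 163 in treated and 40 to 48 in saline kidneys, and Fpr2, a formyl peptide receptor, rose by 2.37 ± 0.34. Of 19 named T and NK lymphocyte genes 3 passed, and the T cell receptor genes Cd3d and Cd3e did not. The sum of all 19 was 189 to 280 in treated and 117 to 133 in saline kidneys, and Ccl5 (3.59 ± 0.38) and Thy1 (2.25 ± 0.29), which other cells also make, rose. Fpr2, Ccl5 and Thy1 are named after their values were seen, and their saline means lay under 3.47, so their high levels in vancomycin groups took them past the filter and their rises say nothing about the lists. Of 5 tested B and plasma cell genes 4 rose, but these included Cd74 (2.36 ± 0.27) and Xbp1 (0.95 ± 0.17), which other cells also use, while Cd79a, Cd79b and Ms4a1 lay below the filter. The part of infiltrating cells in the results above was not tested. The class II genes H2-Ab1 (2.75 ± 0.29), H2-Eb1 (2.31 ± 0.26) and H2-Aa (1.87 ± 0.27) rose on the log2 scale (SE).

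Interferon response and antigen presentation genes rose as a large group: 41 of 47 rose and none fell, with a median of 1.54. Oas1a, a sensor of double-stranded RNA, had 5.79, 7.59 and 9.04 as its lowest, median and highest level in treated kidneys, against 2.89, 4.14 and 4.91 in saline kidneys (10.0-fold, adjusted p = 1.6e-10). Irf7, the transcription factor that amplifies interferon production, rose by 3.25 ± 0.29. Psmb8, a subunit of the immunoproteasome, had 8.49, 9.44 and 10.15 in treated kidneys, against 5.56, 6.31 and 6.60 in saline kidneys. Gbp2, a guanylate-binding GTPase, rose by 2.94 ± 0.33 and Bst2, which tethers budding virus, by 2.17 ± 0.25. Oas1a was lowest in treated mouse 45 and highest in treated mouse 48, and no treated value of Oas1a, Psmb8 or Irf7 fell into the saline range.

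The promoters of these genes are shown because the group moved together and many share a motif. The interferon-stimulated response element core was searched as GAAA, any 2 bases and GAAA again, on both strands in the RefSeq window from 250 bases before to 50 bases after the gene start (GRCm38.p6). Overlapping matches were allowed. Among the 41 tested members with a window, 18 held it (43.9%), against 3.8% of 4654 tested genes with a window and 3.99% of all 27025 genes with a window. Among the 35 risers with a window, 15 held it (42.9%), a share no higher than that of all tested members. A match is a description of letters, not a site shown to be used. The windows of 3 risers with a match and the largest changes lie at chr5:120907476-120907775 (Oas1a, minus strand), chr3:142620413-142620712 (Gbp2, plus strand) and chr8:71537423-71537722 (Bst2, minus strand), and capitals mark the matches. Each is written 5′ to 3′ along the gene.
Oas1a: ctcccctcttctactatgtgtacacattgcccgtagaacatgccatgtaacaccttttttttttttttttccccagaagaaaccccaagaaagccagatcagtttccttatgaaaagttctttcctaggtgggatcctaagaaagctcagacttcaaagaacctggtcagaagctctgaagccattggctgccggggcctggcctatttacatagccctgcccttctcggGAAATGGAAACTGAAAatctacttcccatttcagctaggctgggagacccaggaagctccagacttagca
Gbp2: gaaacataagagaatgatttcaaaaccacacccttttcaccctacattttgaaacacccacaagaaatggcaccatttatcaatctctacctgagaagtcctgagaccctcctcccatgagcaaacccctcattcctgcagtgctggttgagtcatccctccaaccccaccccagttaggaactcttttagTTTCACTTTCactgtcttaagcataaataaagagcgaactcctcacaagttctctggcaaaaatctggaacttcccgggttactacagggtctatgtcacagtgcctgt
Bst2: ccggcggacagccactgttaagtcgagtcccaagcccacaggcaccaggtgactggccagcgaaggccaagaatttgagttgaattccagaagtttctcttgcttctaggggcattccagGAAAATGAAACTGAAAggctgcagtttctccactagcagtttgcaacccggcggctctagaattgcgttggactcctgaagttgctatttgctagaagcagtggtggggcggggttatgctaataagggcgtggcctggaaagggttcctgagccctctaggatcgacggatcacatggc
Oas1a and Bst2 each held 2 overlapping matches and the match of Gbp2 is on the opposite strand. In Oas1a the first bases of the matches lie 20 and 14 bases before the gene start.

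Complement, coagulation and acute-phase genes rose too, 17 of 23 with 2 falls (median 1.68). Fga, the fibrinogen alpha chain usually made by liver, averaged 11.68 ± 1.14 in treated and 7.44 ± 0.47 in saline kidneys (SD). The complement regulator Cfi averaged 10.58 ± 0.46 in treated and 6.78 ± 0.11 in saline kidneys. The plasma copper oxidase Cp rose by 3.29 ± 0.25 on the log2 scale. Liver markers as a list did not move one way: 3 of 8 rose and 3 fell, with albumin, Alb, at 3.58 ± 0.68 in treated and 6.20 ± 0.67 in saline kidneys (SD) and Ambp, Apoh, F2 and F9 below the filter. Agt, the renin substrate, rose by 3.39 ± 0.26 from a background level in saline kidneys.

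Genes of cell division rose. Of 32 tested DNA replication genes 29 rose and 1 fell (median 1.24), with 25 rises without saline mouse 1 and treated mouse 44, and of 55 genes of mitosis and the cyclins 42 rose and 2 fell (median 1.28), or 41 and 3 without them. Mki67, the Ki-67 antigen of cycling cells, had 7.61, 8.65 and 8.99 in treated kidneys, against 3.56, 3.97 and 4.39 in saline kidneys (22.5-fold, adjusted p = 1.2e-12). Rrm2, the regulated subunit of ribonucleotide reductase, had 8.88, 9.61 and 10.06 in treated kidneys, against 4.54, 4.66 and 4.97 in saline kidneys. Birc5 (survivin, 4.53 ± 0.36), cyclin A2, Ccna2 (4.32 ± 0.36), and Cks1b (3.70 ± 0.28), a small partner of cyclin-dependent kinases, rose without overlap. The saline means of Birc5 and Ccna2 were not told from background, so their vancomycin levels may have taken them past the filter and into the count. Cdkn1a, the cell cycle inhibitor p21, rose as well, with 8.34, 8.71 and 9.72 in treated kidneys, against 6.81, 7.13 and 7.45 in saline kidneys. It averaged 7.11 in saline, 5.94 at 50 mg/kg, 6.75 at 200 mg/kg and 8.90 at 400 mg/kg iv, so saline stood above both lower doses. Of 22 DNA damage and p53 target genes 11 rose and 2 fell, 9 and 5 without saline mouse 1 and treated mouse 44. Ccng1, another p53 target, averaged 10.44 ± 0.38 in treated and 10.78 ± 0.26 in saline kidneys (SD, adjusted p = 0.076), and passed as lower without saline mouse 1 (adjusted p = 0.0411).

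The CCAAT box, a promoter element common in cell cycle genes, was searched as CCAAT on both strands in the same windows. It was present in 30 of 45 mitosis and cyclin genes with a window (66.7%), against 42.4% of the 4654 tested genes and 41.1% of all 27025 genes. Of the 35 risers with a window 22 held it (62.9%), a share no higher than that of all tested members. The windows of 2 risers with a match and the largest changes are shown, with matches in capitals. They lie at chr7:135716330-135716629 (Mki67, minus strand) and chr3:89418242-89418541 (Cks1b, minus strand), in RefSeq GRCm38.p6.
Mki67: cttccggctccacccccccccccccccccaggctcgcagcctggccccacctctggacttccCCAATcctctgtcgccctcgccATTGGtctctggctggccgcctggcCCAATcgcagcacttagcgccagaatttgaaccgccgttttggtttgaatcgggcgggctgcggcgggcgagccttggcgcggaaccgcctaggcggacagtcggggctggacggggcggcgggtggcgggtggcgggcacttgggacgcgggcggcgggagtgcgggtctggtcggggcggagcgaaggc
Cks1b: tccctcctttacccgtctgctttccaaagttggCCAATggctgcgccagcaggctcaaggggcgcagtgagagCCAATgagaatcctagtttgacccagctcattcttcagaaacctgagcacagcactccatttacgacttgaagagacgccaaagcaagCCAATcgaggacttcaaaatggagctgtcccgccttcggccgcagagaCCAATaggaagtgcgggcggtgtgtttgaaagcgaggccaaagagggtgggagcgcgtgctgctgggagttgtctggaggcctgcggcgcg
Mki67 held 3 matches and Cks1b 4.

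**Figure D3:**
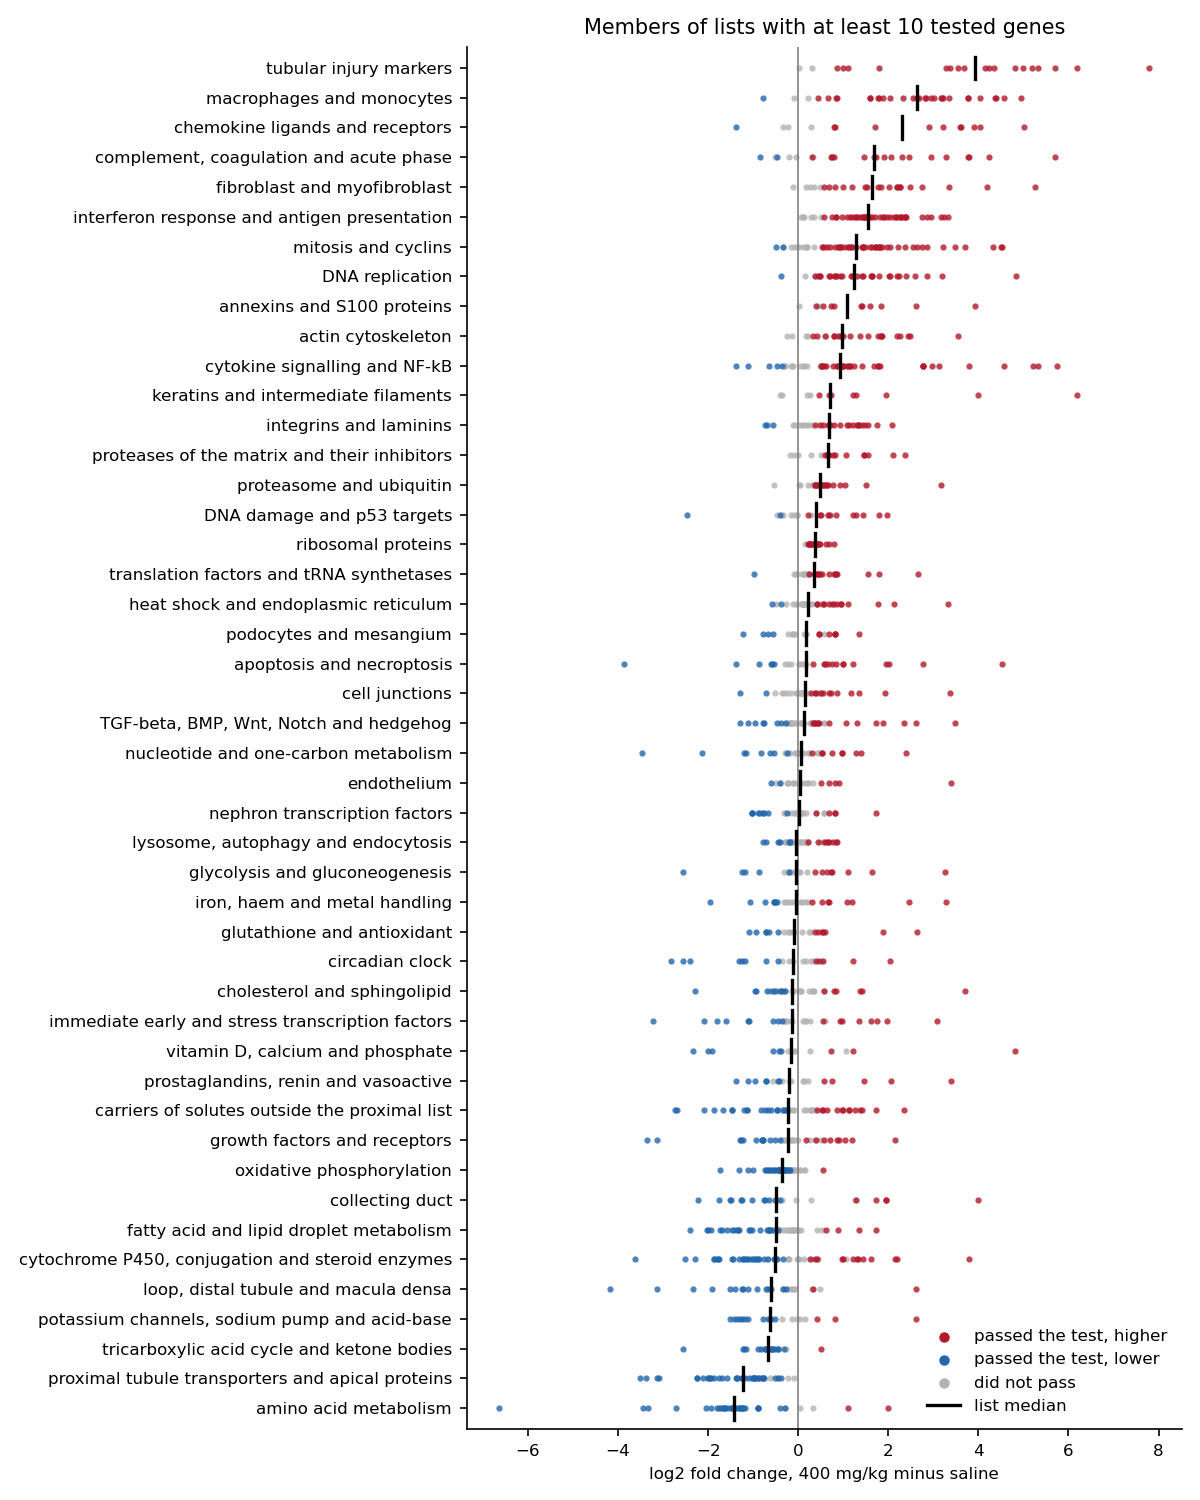
Log2 fold change (400 mg/kg minus saline) of every tested member of the gene lists with at least 10 tested genes, sorted by list median (black bar). Red members passed the test as higher, blue members as lower, and grey members did not pass. Tubular injury markers lie farthest right, with a median of 3.92, and amino acid metabolism farthest left, with a median of -1.42.

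Transport genes of the proximal tubule fell. Of 42 tested transporters and apical proteins none rose and 38 fell (median -1.21), and 39 fell without saline mouse 1 and treated mouse 44. Slc34a1, the apical sodium-phosphate cotransporter NaPi-IIa, had 9.72, 11.25 and 13 as its lowest, median and highest level in treated kidneys, against 12.83, 13.23 and 13.63 in saline kidneys (a 4.0-fold fall, adjusted p = 5e-07). Treated mouse 45 lay inside the saline range, and the other 5 treated kidneys lay below it. Lrp2, the endocytic receptor megalin, had 10.19, 10.72 and 12.01 in treated kidneys, against 12.15, 12.90 and 13.02 in saline kidneys. The organic anion transporter Slc22a8 had 6.16, 8.52 and 10.64 in treated kidneys, against 11.35, 11.73 and 11.98 in saline kidneys. Slc22a29 (-3.50 ± 0.35), Slc22a22 (-3.08 ± 0.45) and the brush border protease Mep1b (-3.37 ± 0.45) fell by more than Slc34a1 (-2.002 ± 0.31) on the log2 scale. Slc17a3, an organic anion exporter, did not pass (-0.44 ± 0.22, adjusted p = 0.088), but it passed without saline mouse 1 (adjusted p = 0.0421).

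Another phosphate cotransporter, Slc34a2, had higher levels. Slc34a2, NaPi-IIb of gut and lung, had 6.96, 9.38 and 10.22 in treated kidneys, against 4.07, 4.15 and 5.20 in saline kidneys (27.9-fold, adjusted p = 2.4e-12). Mouse 45 had the lowest treated value of Slc34a2 and the highest of Slc34a1. Kl, the FGF23 co-receptor klotho, had 8.13, 8.79 and 10.63 in treated kidneys, against 11.08, 11.35 and 11.68 in saline kidneys. Over the vitamin D, calcium and phosphate list 3 of 14 rose and 6 fell, 2 and 6 without saline mouse 1 and treated mouse 44.

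The loop, distal tubule and macula densa list fell in 15 of 25 members, and 2 rose (median -0.60), 16 and 1 without saline mouse 1 and treated mouse 44. Pvalb, a calcium buffer of the early distal convoluted tubule, had 3.19, 5.19 and 8.22 in treated kidneys, against 9.19, 9.61 and 10.03 in saline kidneys (an 18-fold fall). Calb1, the calcium buffer calbindin, fell by 1.91 ± 0.25 and Slc12a1, the loop sodium-potassium-chloride cotransporter, by 1.23 ± 0.20 (SE). Umod, uromodulin of the thick ascending limb, fell by only 0.28 ± 0.08 (adjusted p = 0.0031), with 12.73, 12.97 and 13.29 in treated kidneys, against 13.18, 13.25 and 13.35 in saline kidneys. Atp1b1, a sodium pump subunit, did not pass (-0.14 ± 0.09). Among these genes the treated values of Pvalb were spread most widely and those of Umod least.

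In the collecting duct list 5 of 22 genes rose and 12 fell (median -0.48). The rises were led by Krt19 and Krt8, which are epithelial keratins of wider use, and by Niban1 (1.95 ± 0.31). The factor Hmx2 fell by 2.22 ± 0.25 on the log2 scale. Aqp2, the vasopressin-regulated water channel, had 9.33, 10.91 and 11.38 in treated kidneys, against 10.39, 11.06 and 11.86 in saline kidneys, and did not pass (-0.46 ± 0.30, adjusted p = 0.21). Of 19 podocyte and mesangial genes 7 rose and 4 fell, and nephrin, Nphs1, stood at 5.21 ± 0.27 in treated and 5.29 ± 0.27 in saline kidneys (SD, adjusted p = 0.73). Of 22 endothelial genes 5 rose and 2 fell. The largest of these was Icam1, the leukocyte adhesion molecule, which tubule cells can also make, with a rise of 3.40 ± 0.28.

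Amino acid metabolism fell most of all lists with at least 10 tested members, with 31 of 36 members lower and 2 higher (median -1.42). Hpd, the dioxygenase of tyrosine breakdown, had 4.38, 6.15 and 10.89 in treated kidneys, against 12.98, 13.22 and 13.59 in saline kidneys. This 99.5-fold fall (-6.64 ± 0.58, adjusted p = 8.1e-13) was the deepest of all 5748 genes, and the treated values were spread widely (SD 2.30). The SE and p-value use the spread shared by all groups and do not measure this wide treated spread. Gatm, which starts creatine synthesis, had 6.77, 8.00 and 10.47 in treated kidneys, against 11.04, 11.50 and 12.54 in saline kidneys. Aspdh (-3.34 ± 0.37), the glycine methyltransferase Gnmt (-3.14 ± 0.30) and the kynurenine aminotransferase Aadat (-2.72 ± 0.36) also fell. In each of Hpd and Gatm, mouse 45 was the highest treated kidney.

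Genes of fuel use fell by smaller amounts. Of 21 genes of the tricarboxylic acid cycle and ketone bodies 19 fell and 1 rose (median -0.67, or 19 and none without saline mouse 1 and treated mouse 44), of 44 oxidative phosphorylation genes 29 fell and 1 rose (median -0.36), with 35 falls and 1 rise without these 2 mice, and of 49 fatty acid genes 22 fell and 4 rose (median -0.49). Sdha, the flavoprotein of succinate dehydrogenase, had 10.78, 11.01 and 11.37 in treated kidneys, against 11.86, 12.18 and 12.35 in saline kidneys (a 2.2-fold fall, adjusted p = 1e-12). The cytochrome oxidase subunit Cox7a1 fell by 1.74 ± 0.23, whereas the subunit Cox6a1 did not pass (-0.12 ± 0.08, adjusted p = 0.18), though it passed without saline mouse 1 (adjusted p = 0.0119). Acox2, a peroxisomal oxidase, fell by 1.95 ± 0.24 and the ketone body dehydrogenase Bdh1 by 2.56 ± 0.30.

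Of 23 glycolysis and gluconeogenesis genes 8 rose and 5 fell (median -0.05), shares close to those of all genes, so the counts show nothing about the list. Hk2, the inducible hexokinase, had 4.66, 6.30 and 7.57 in treated kidneys, against 2.66, 2.75 and 4.16 in saline kidneys (9.6-fold, adjusted p = 1e-08). G6pc, which releases free glucose, had 7.47, 10.12 and 11.51 in treated kidneys, against 11.30, 12.34 and 12.71 in saline kidneys, with mouse 45 inside the saline range. The gluconeogenic enzyme Pck1 fell by 1.18 ± 0.34 (adjusted p = 0.0034).

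Detoxifying and steroid enzymes fell in 30 of 55 cases and rose in 13 (median -0.51), with 30 falls and 10 rises without saline mouse 1 and treated mouse 44. The deepest fall was Hsd3b2 (-3.62 ± 0.49), of the hydroxysteroid dehydrogenase family, whose near-identical members may share probes. Aldh1a2, which makes retinoic acid, had 7.80, 8.69 and 9.57 in treated kidneys, against 4.76, 4.96 and 5.21 in saline kidneys (13.9-fold). Dnase1, the main secreted nuclease, had 8.04, 11.03 and 13.75 in treated kidneys, against 14.61, 14.73 and 14.81 in saline kidneys. Its treated values were spread widely (SD 2.05), and its saline values lay close together (SD 0.09), with no overlap. Dpys, of pyrimidine breakdown, fell by 3.48 ± 0.27, while Ctps, of pyrimidine synthesis, rose by 2.39 ± 0.21.

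Protein production and turnover genes rose by small amounts. Of 20 tested ribosomal protein genes 19 rose (median 0.38), 15 without saline mouse 1 and treated mouse 44, and of 25 proteasome and ubiquitin genes 18 rose (median 0.48), 15 without these mice. Rpl7 averaged 13.09 ± 0.26 in treated and 12.40 ± 0.23 in saline kidneys (SD). Of 27 translation factor and tRNA synthetase genes 15 rose and 1 fell. Asns, asparagine synthetase, rose by 2.67 ± 0.28 and Eif4ebp1, a brake on translation, by 1.80 ± 0.22. Of 35 heat shock and endoplasmic reticulum genes 14 rose and 2 fell, 12 and 3 without saline mouse 1 and treated mouse 44. The list was led by the small heat shock protein Hspb1, with 11.12, 12.07 and 12.34 in treated kidneys, against 7.92, 8.54 and 9.40 in saline kidneys.

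The counts of redox and iron genes were near the shares of all genes and show nothing about these lists. Of 21 glutathione and antioxidant genes 7 rose and 6 fell, but 3 rose and 7 fell without saline mouse 1 and treated mouse 44. The rises were led by Cybb (2.63 ± 0.34), the NADPH oxidase subunit of phagocytes, which is not a defence enzyme, and by Gpx7 (1.87 ± 0.21). Nqo1, the NRF2-regulated quinone reductase, fell by 0.94 ± 0.24 (adjusted p = 0.00092). Of 26 iron, haem and metal genes 8 rose and 7 fell, and ferritin heavy chain, Fth1, stood at 14.45 ± 0.25 in treated and 14.36 ± 0.15 in saline kidneys (SD, adjusted p = 0.47). Of 28 apoptosis and necroptosis genes 13 rose and 6 fell, and Birc3, an inhibitor of apoptosis, rose by 2.76 ± 0.20.

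The treated mice were not alike. For each list, the median difference of its members from the saline mean was taken in every mouse. In tubular injury markers it was 2.76 in treated mouse 45 and 3.43 to 4.15 in the other 5 treated mice. In proximal tubule transporters it was -0.47 in mouse 45, and -1.83 in mouse 48, the lowest. In saline mouse 1 it was -0.41, close to the value of mouse 45. Macrophage genes had another order: 1.29 in mouse 44, 1.92 in mouse 45 and 2.59 to 3.55 in the other 4. Mouse 44 thus had the second deepest transporter value (-1.60) beside the lowest macrophage value. Mitotic genes ranged from 0.72 in mouse 45 to 1.74 in mouse 48. These are descriptions of 6 kidneys, with no test.

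**Figure D4:**
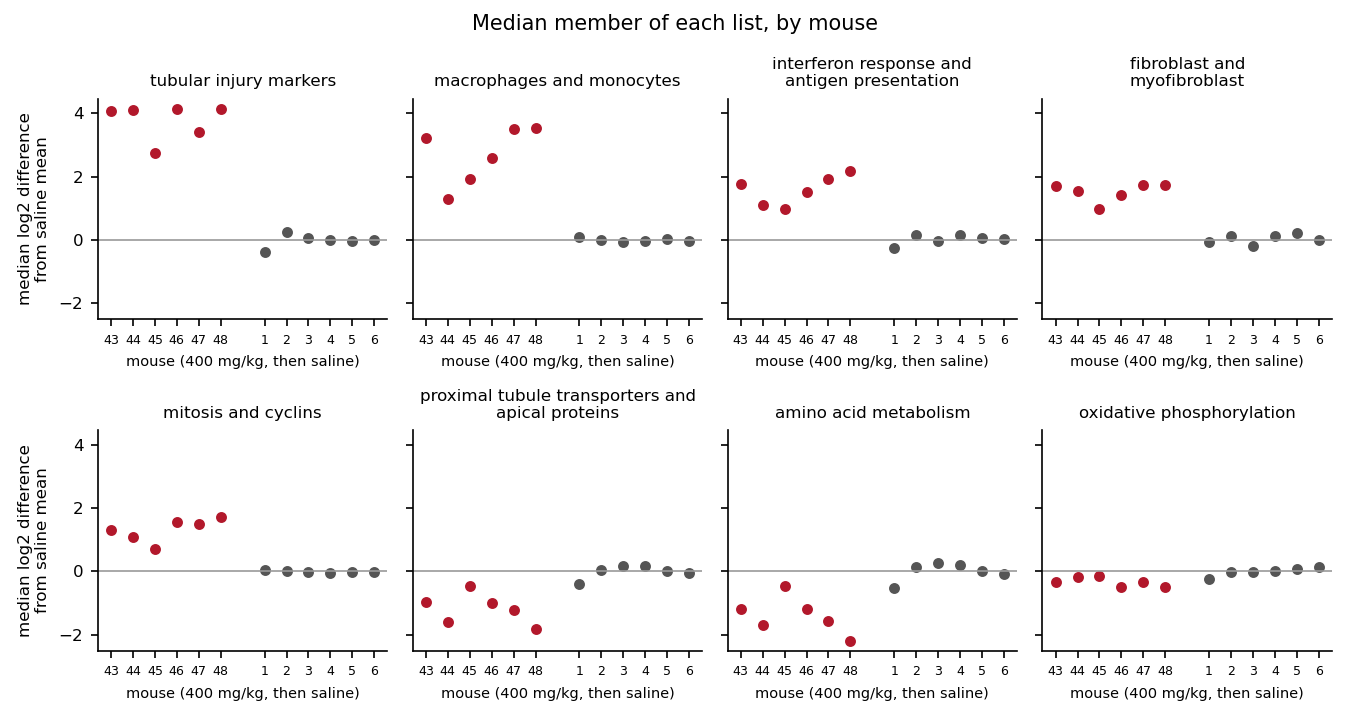
Median over list members of the log2 difference from the saline mean (vertical axis), for each of 6 mice at 400 mg/kg (red, mice 43 to 48) and 6 saline mice (grey, mice 1 to 6), in 8 gene lists. Mouse 45 lies nearest to 0 among the treated mice for injury, interferon, mitosis, transporter and amino acid genes, and mouse 44 for macrophage genes.

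The other iv groups, which share the saline mice, place these levels. Hpd averaged 13.27 in saline, 13.36 at 50 mg/kg, 12.11 at 200 mg/kg and 6.63 at 400 mg/kg. Havcr1 averaged 9.64 in saline, 9.25 at 50 mg/kg, 12.12 at 200 mg/kg and 13.19 at 400 mg/kg. At 200 mg/kg the spread was wide: Serpina10 had a lowest, median and highest level of 3.75, 10.05 and 10.46 there, so the 200 mg/kg mice ranged from within the saline values to just inside the 400 mg/kg values. Mki67 averaged 3.98 in saline, 3.80 at 50 mg/kg, 6.00 at 200 mg/kg and 8.48 at 400 mg/kg.

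**Figure D5:**
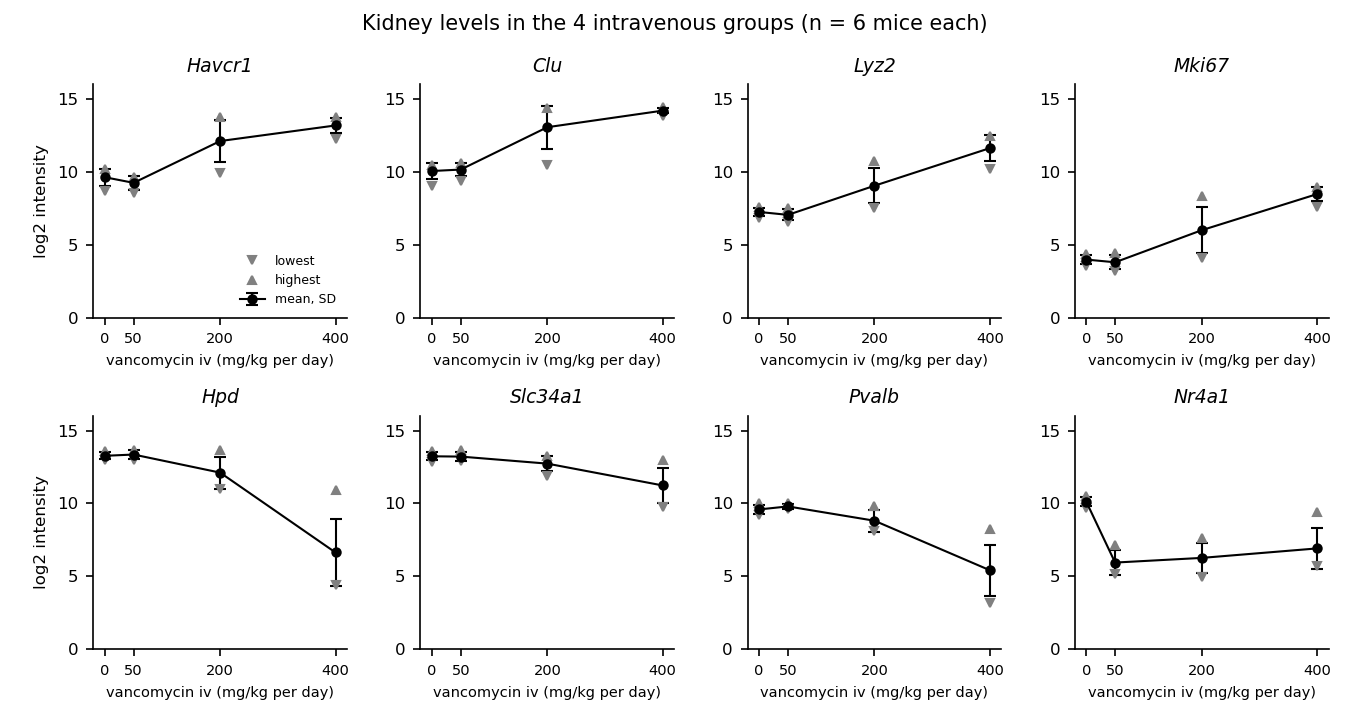
Mean log2 intensity with SD of 8 genes over 6 mice per group (vertical axis) against the daily iv dose (horizontal axis, saline at 0), with the lowest and highest mouse as triangles. For Nr4a1 the saline group stands above all 3 vancomycin groups, and Havcr1, Clu, Lyz2 and Mki67 are highest at 400 mg/kg.

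Immediate early genes did not follow this order. Nr4a1, a nuclear receptor induced within minutes of a stimulus, had 5.71, 6.30 and 9.41 at 400 mg/kg, against 9.71, 10.15 and 10.53 in saline (it fell by 3.21 on the log2 scale, SE 0.41). In order of dose it averaged 10.12 in saline, 5.94 at 50 mg/kg, 6.26 at 200 mg/kg and 6.91 at 400 mg/kg. Slc25a25, a mitochondrial ATP carrier, averaged 8.24, 5.65, 5.05 and 5.52 in the same order, and Fos, of the AP-1 factor, 10.14, 5.73, 6.93 and 8.03. The falls of these 3 genes therefore rest on a saline group that averaged above every iv vancomycin group, and the cause was not tested. The call on Fos (adjusted p = 0.014) ended without saline mouse 1 and treated mouse 44 (adjusted p = 0.0747). Myc, in contrast, averaged 3.89 in saline, 3.94 at 50 mg/kg, 4.75 at 200 mg/kg and 6.96 at 400 mg/kg. Over the list of immediate early and stress factors 8 of 27 rose and 9 fell.

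Circadian genes were also mixed: 5 of 21 rose and 8 fell, and 3 rose and 8 fell without saline mouse 1 and treated mouse 44. Ciart, a repressor of the clock, averaged 7.40 in saline, 5.90 at 50 mg/kg, 5.92 at 200 mg/kg and 4.57 at 400 mg/kg. The clock output factor Hlf fell by 2.41 ± 0.32 (log2, SE), and Nr1d1, REV-ERB alpha, by 2.55 ± 0.38. The hour at which each mouse was killed is not given in the sources used here.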

How the data were processed

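Total RNA of 48 mouse kidneys was labelled with biotin and hybridised to single-colour Affymetrix arrays, per the labels' protocols. The deposited table holds intensity values on a linear scale for 45101 probe sets, which the authors made with GCRMA, as the submitters' processing notes have it. The sources used here give neither its version nor the arrays it was run on together. GCRMA models background binding, so values near background are imprecise. The labels name no batch, and each sample is a separate mouse.

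Log2 was taken with no offset. Probe sets were named by row position: rows 751 to 3250 took the gene of the identifier row 64 further on, rows 5001 to 11750 that of 47 rows before, and rows 34251 to 36000 that of 16168 rows before. This gave 10198 probe sets of 7859 genes a name, of which 7845 genes matched RefSeq (GRCm38.p6) by Entrez ID. Probe sets with several symbols were not named. The filter on low values asked for a log2 intensity above 3.47 on 6 or more arrays. Where a gene had several such probe sets, the brightest on average was taken, which left 5748 genes. Of 173 called genes over 2-fold with several kept probe sets, all probe sets moved one way in 169. Among the genes named here, the probe sets of Pycard did not.

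All 8 groups were fitted together with limma 3.58.1 in R 4.3.3 (eBayes with an intensity trend, on 40 residual degrees of freedom), as 400 mg/kg minus saline, two-sided, with Benjamini-Hochberg adjustment over 5748 genes and a threshold of 0.05. The fit was tested on simulated data. Alternatives were other sets of arrays, array weights, quantile or median normalization, other filters, the mean of probe sets, trimmed stretches and leaving out each array. The comparison, gene lists and motifs were chosen with earlier results of these data known. The genes named were the 20 largest rises and falls without overlap, the 10 brightest of each over 2-fold, up to 4 called members with the largest changes and the 2 brightest uncalled members of each list with at least 5 tested genes, the widest spread among treated mice, and a set of kidney markers. Some list members were left out for length. Genes named only as lying below the filter were chosen after their values were seen.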

Additional observations from a re-analysis of the deposited data

Results flagged for a closer look

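In 39 of 432 looks, at 216 genes in both groups of 6, the highest or lowest mouse stood apart from the other 5. Its gap to the nearest of them, divided by the range of the group, was above Dixon's critical value for 6 values, which chance exceeds in about 1 of 20 groups. Most of these were treated mouse 45 and saline mouse 1, and the cause was not tested. The number beside each gene is this gap over range. Treated mouse 44 was the lowest of its group for H2-Aa (0.669) and H2-Ab1 (0.640). For H2-Aa, its log2 intensity was 9.58, and the nearest other mouse was at 10.87. Treated mouse 45 was the highest of its group for Clec2h (0.767) and Dpys (0.712). For Clec2h, its log2 intensity was 6.32, and the nearest other mouse was at 3.99. Treated mouse 45 was the lowest of its group for Ccna2 (0.738), Cd14 (0.666), Cks1b (0.653), Gla (0.697), S100a4 (0.789), Slc34a2 (0.631), Smpdl3b (0.653), Tgfb1 (0.701), Tmsb10 (0.649), Tsc22d1 (0.665) and Wfdc2 (0.649). Treated mouse 46 was the highest of its group for Nqo1 (0.697). For Nqo1, its log2 intensity was 6.66, and the nearest other mouse was at 6.09.

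Saline mouse 1 was the highest of its group for Il1f6 (0.972) and Slc34a2 (0.852). For Il1f6, its log2 intensity was 3.98, and the nearest other mouse was at 2.30. Saline mouse 1 was the lowest of its group for Acox2 (0.828), Aoc1 (0.758), Axl (0.627), Bst2 (0.774), Clu (0.696), Cox6a1 (0.728), Eif1a (0.677), Gys2 (0.651), Krt8 (0.751), Ndufs1 (0.685), Pdgfrb (0.630), Pycard (0.787) and Rpl7 (0.750). Saline mouse 2 was the lowest of its group for Nphs1 (0.809). For Nphs1, its log2 intensity was 4.74, and the nearest other mouse was at 5.32. Saline mouse 3 was the lowest of its group for Clec2h (0.687) and Tgfb1 (0.780). For Clec2h, its log2 intensity was 7.43, and the nearest other mouse was at 7.93. Saline mouse 4 was the highest of its group for Lamb3 (0.734), Lsp1 (0.777) and Serpina1b (0.641). Saline mouse 4 was the lowest of its group for Klf9 (0.810). For Klf9, its log2 intensity was 7.67, and the nearest other mouse was at 8.08. Saline mouse 6 was the highest of its group for Cxcl10 (0.794). For Cxcl10, its log2 intensity was 5.23, and the nearest other mouse was at 4.74.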

How the results depend on the processing

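The counts of called genes, of rises, of falls and of changes over 2-fold stayed within 1.5 times of the reported ones under 10 other settings: 12 or 24 arrays in the fit, array weights, quantile normalization, median centring, no filter, a filter at log2 6, the mean of probe sets, trimmed stretches, and both arrays that stand apart left out, an alternative chosen after seeing the data. Among these settings, the fit on the 12 arrays of the comparison called the fewest genes, 2312, and quantile normalization the most, 3031. The fit on the 24 iv arrays called 2487, against 2859 with all 48 arrays. Without each array in turn, 2567 to 2937 genes were called, with 1496 to 1797 rises, 992 to 1289 falls and 825 to 1021 changes over 2-fold. The fewest rises and the most falls came without saline mouse 1. Rises made up 61.8% of the calls, and 52.8% under quantile normalization. Over all 24930 kept probe sets, named or not, 10279 were called. Of 203 called genes named by the rule for the text, 200 kept their call under every setting run for them. Fos (adjusted p = 0.0615 in limma on 24 arrays), Cryab (0.106 with array weights) and Pdgfrb (0.0525 with array weights) did not. Nphs1, uncalled throughout, was -0.08 on the log2 scale with all mice, and from -0.187 (without saline mouse 2) to 0.013 (without treated mouse 43) with a mouse left out. Surrogate variables were planned and not run. No paired analysis was possible because mouse numbers are not shared between groups. Signal near background limits low genes: 140 of 574 rises over 2-fold had a saline mean under 3.47.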
